A study of Homo sapiens with 2 samples.

Results

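The regions described here are the peaks of NUSAP1 on human chromosome 6 in AsPC1 cells, an established line from a human pancreatic ductal adenocarcinoma. They were taken as all rows of the deposited peak list that lie on chromosome 6, which gave 903 summits of the 9043 in the list (9.99%). A summit is the base of highest signal in a peak. ChIP-seq, the sequencing of DNA that co-precipitates with a protein, was done once with a Proteintech antibody to NUSAP1, and input chromatin without antibody was sequenced as a further library. In both, cells had been fixed in 1% formaldehyde for 10 min, and libraries were size selected at 250 to 450 bp. The labels name no gene edit, drug or time point. The series title links NUSAP1 to LDHA and glycolysis. With 1 immunoprecipitated library of 1 cell line there were no replicates, so the values below carry no replicate check and the q of the authors' peak caller was the sole test of a single summit. The regions were chosen by position from a list that had itself been selected on the caller's p, so the presence of a summit, its enrichment and the density along the chromosome are given as description. Total reads of the libraries are not analysed here, so the depth is unknown. Intervals on counts and shares cover counting error only.

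NUSAP1, the nucleolar and spindle associated protein, binds microtubules and helps to build and stabilise the mitotic spindle around chromosomes. It also carries a SAP domain, a fold found in many proteins that bind DNA. It has no well-established consensus motif on DNA. Chromosome 6 holds the largest cluster of replication-dependent histone genes, which supply the packaging proteins of newly made DNA, and beside it the major histocompatibility complex (MHC), whose HLA genes encode the molecules that present peptides to T cells. A large share of the cell's transfer RNA (tRNA) genes lie in the same part of the short arm.

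The sequences at the summits that lay within 250 bases before an annotated transcription start are shown first, because they are the places where a summit and the start of a gene coincide. They are the bases upstream of the start, on the strand of the gene, from RefSeq on build GRCh38.p14. The 21 capitals are the summit and the 10 bases on either side of it. Where an annotated gene, another one or the same gene, overlapped the window, it was shortened. The bases shown for NHSL1 therefore do not reach its start, which is at 138499494.
GTF2H4, chr6:30907957-30908206, plus strand: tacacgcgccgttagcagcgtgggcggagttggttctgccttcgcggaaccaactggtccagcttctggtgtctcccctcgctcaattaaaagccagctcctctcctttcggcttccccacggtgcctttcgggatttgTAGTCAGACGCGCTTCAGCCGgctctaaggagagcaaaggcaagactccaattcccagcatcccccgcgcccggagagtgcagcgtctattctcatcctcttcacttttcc
ACOT13, with TDP2 starting on the other strand, chr6:24666900-24667076, plus strand: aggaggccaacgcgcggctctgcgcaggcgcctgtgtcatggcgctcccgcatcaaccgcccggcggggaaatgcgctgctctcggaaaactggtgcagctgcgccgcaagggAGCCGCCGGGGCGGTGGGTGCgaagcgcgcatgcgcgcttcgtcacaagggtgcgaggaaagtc
PHF3, an inner start of the gene, chr6:63636454-63636480, plus strand: cgtcTGCTGCGAGGGCGCCCCGCCGcc
NHSL1, an inner start of the gene, chr6:138499676-138499704, minus strand: cgtaGAGGAAAGTCTGCACTATTTTtgtg
LOC105378005, chr6:131443797-131444046, minus strand: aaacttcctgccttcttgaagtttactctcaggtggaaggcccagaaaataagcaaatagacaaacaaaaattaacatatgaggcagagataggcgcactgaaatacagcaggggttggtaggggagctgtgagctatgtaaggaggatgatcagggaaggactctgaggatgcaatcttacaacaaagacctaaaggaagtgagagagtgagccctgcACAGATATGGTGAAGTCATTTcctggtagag
LOC105378002, chr6:130723460-130723709, minus strand: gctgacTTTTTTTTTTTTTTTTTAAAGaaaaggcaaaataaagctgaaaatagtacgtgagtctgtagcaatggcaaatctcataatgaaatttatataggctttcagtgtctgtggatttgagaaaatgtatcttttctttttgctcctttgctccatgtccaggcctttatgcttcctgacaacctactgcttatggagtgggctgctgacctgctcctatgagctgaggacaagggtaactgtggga
G and C made up 58.0%, 70.1% and 85.2% of the bases of the first 3, and 41.4% of the 29 bases at NHSL1, whose summit (138499690, fold enrichment 2.42, q 1) lay 196 bp before that start. The windows of the long non-coding RNA (lncRNA) genes LOC105378005 and LOC105378002 had 44.8% and 39.2%. The summit of LOC105378002 lay in a run of T bases. The shared window of ACOT13 and TDP2 held 2 GC boxes (GGGCGG on either strand), and that of GTF2H4 held 1 GC box and 1 CCAAT box.

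Chromosome 6 was among the chromosomes rich in NUSAP1 summits. It carried 5.29 summits per Mb over 170.7 Mb (Poisson interval at 95%, 4.95 to 5.65), against 2.85 on the other chromosomes together (2.78 to 2.91), a ratio of 1.86. Chromosome 11 had 6.01 per Mb, chromosome 3 had 4.97 and chromosome 4 had 0.715. With 1 library the difference between chromosomes could not be tested against replicate spread.

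Most of these summits rested on few molecules. The number of immunoprecipitated fragments at each summit was worked out from its fold enrichment and p, and the background is the number of fragments that the caller expected there. The median was 5 fragments, and 791 of the 903 summits (87.6%) had 4, 5 or 6, while 112 (12.4%) had 7 or more. In the whole list 12.2% had 7 or more. Fold enrichment, the ratio of fragments to background with 1 added to each, ran from 2.19 to 5.41 with a median of 2.99 (quartiles 2.70 and 3.46). The background had a median of 0.963 fragments (quartiles 0.836 and 1.13), against 0.906 on the other chromosomes. Its median was 0.991 on chromosome 11, 0.977 on chromosome 3 and 0.712 on chromosome 4. The part of the background in the density of each chromosome was not tested. The largest p among the summits of chromosome 6 was 0.00497, and no values of regions outside the list were used. A q under 0.05 was reached by 12 summits (1.33%, 95% Wilson interval 0.762 to 2.31), against 1.48% of the whole list and 1.5% outside the chromosome, while 770 (85.3%) had a q of 0.5 or more.

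The summits covered the chromosome from end to end, with a moderate unevenness. Over the 34 full windows of 5 Mb, numbered from the end of the short arm, the median count was 25.5, the lowest 10 and the highest 48. The variance of the counts was 2.90 times their mean. The window of 115 to 120 Mb was the fullest, with 48 summits (Poisson interval 35.4 to 63.6). Next came 3 windows with 38 each, at 85 to 90, 110 to 115 and 120 to 125 Mb. The emptiest were 150 to 155 Mb with 10, 90 to 95 Mb with 11 (5.49 to 19.7), and 40 to 45 Mb with 13. From 0 to 10 Mb, 69 summits were listed (6.90 per Mb), and from 110 to 140 Mb, 222 (7.40 per Mb).

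**Figure D1:**
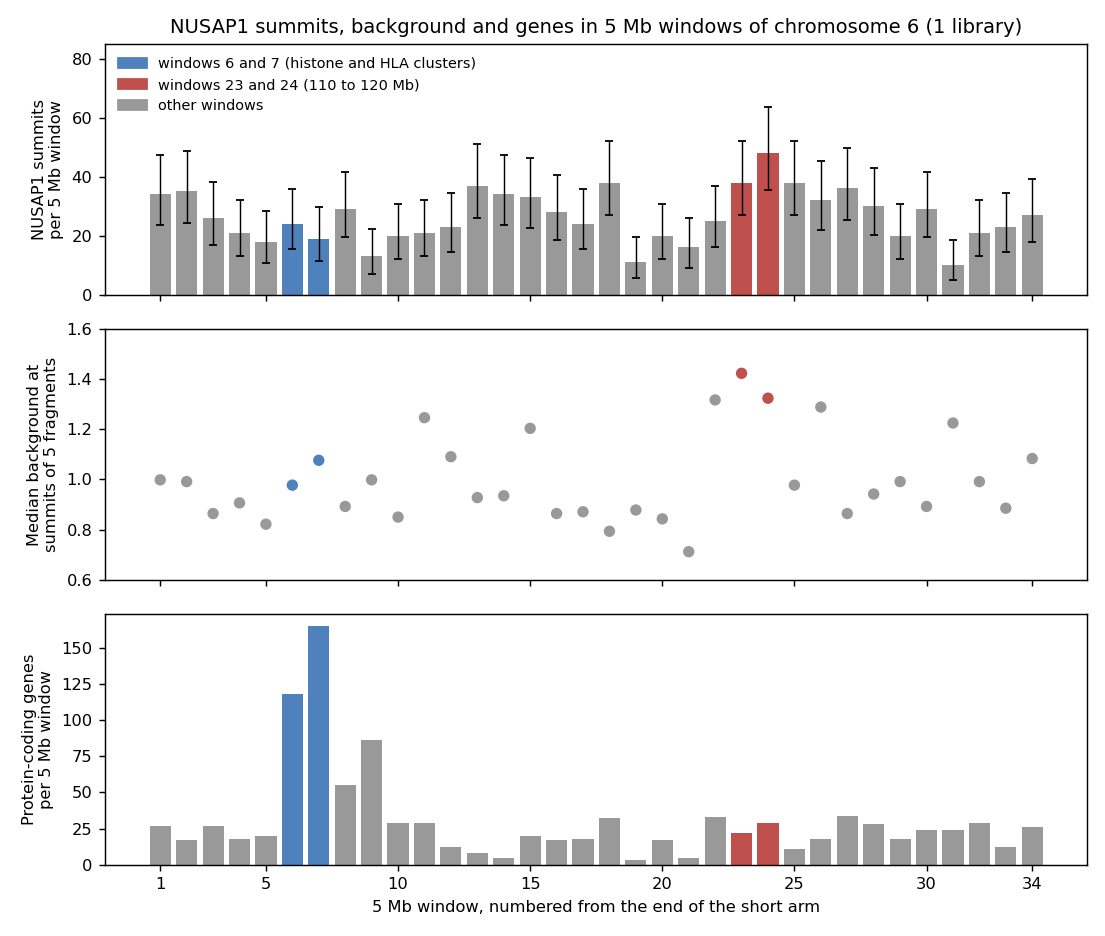
Counts in the 34 full windows of 5 Mb along chromosome 6, numbered on the x axis from the short-arm end: NUSAP1 summits with 95% Poisson intervals (top, bars with error bars), median background in fragments at summits resting on 5 fragments (middle, points; axis starts above 0) and protein-coding genes (bottom, bars). Window 24 has the most summits, 48, and window 23 the highest background, 1.42, while windows 6 and 7 have the most genes, 118 and 165, with 24 and 19 summits.

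Gene density and summit density did not run together along the chromosome. Across the 34 windows, which come from the same library, Pearson's r between summits and protein-coding genes was -0.18 and Spearman's rho 0.0051, and for lncRNA genes they were -0.068 and -0.042. Between summits and the median background at 5 fragments, a fixed number of fragments, r was 0.24 and rho 0.18. These are descriptions of 1 list, and the background comes from the same summits.

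The stretch from 110 to 120 Mb on the long arm held 86 summits, 8.60 per Mb (6.88 to 10.6), against 5.09 on the rest of the chromosome (4.74 to 5.45), a ratio of 1.69. It was proposed because it was dense, so no test is given. It held 5.10 protein-coding genes per Mb against 6.17 on the rest. Per 1 Mb the counts were 5, 6, 11, 8, 8, 10, 10, 8, 9 and 11. From 110 to 112 Mb the density, 5.5 per Mb, was near that of the rest. The excess lay between 112 and 120 Mb, where every 1 Mb held 8 or more. The median distance between neighbouring summits was 77.0 kb there and 130.2 kb over the whole chromosome.

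Summits of the 110 to 120 Mb stretch stood on more fragments and on a higher background. These 2 measures are not independent, since at a higher background a summit needs more fragments to reach the same caller's p. With 4 fragments, the largest caller's p of the chromosome, 0.00497, came at a background of 1.08. The median was 6 fragments, against 5 on the rest, and 21 of the 86 (24.4%, Wilson interval 16.6 to 34.5) had 7 or more, against 91 of 817 (11.1%, 9.16 to 13.5). Most of these 21 lay from 110 to 115 Mb, where 17 of 38 summits had 7 or more. In the fullest window, 115 to 120 Mb, 4 of 48 had 7 or more. From 110 to 112 Mb, where the density was near that of the rest, 5 of 11 summits had 7 or more. The 1 Mb from 112 Mb and that from 119 Mb held 11 summits each, of which 4 and 0 had 7 or more. The median background was 1.41 against 0.949 fragments, and at a fixed 5 fragments it was 1.42 (25 summits) against 0.963 (333 summits). Over all summits of the window, the median background was 1.42 at 110 to 115 Mb and 1.09 at 115 to 120 Mb. A background above 1.4 was found at 44 of the 86 summits (51.2%), at 139 of the 817 others (17.01%) and at 14.6% of summits on the other chromosomes. None of the 86 stood at the lowest background of the list, 0.708, against 56 elsewhere on chromosome 6. Counting only summits of 7 or more fragments, the ratio to the rest was 3.71. Counting only a fold enrichment of at least 4, it was 0.494, from 2 summits. Among summits on a background of at most 1.4, a limit added after the data were seen, the stretch held 42 and the ratio was 0.995. The Mb of the stretch and of the rest were left unchanged, so that ratio does not compare densities at an equal background. The part of the raised background in the density was not tested.

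**Figure D2:**
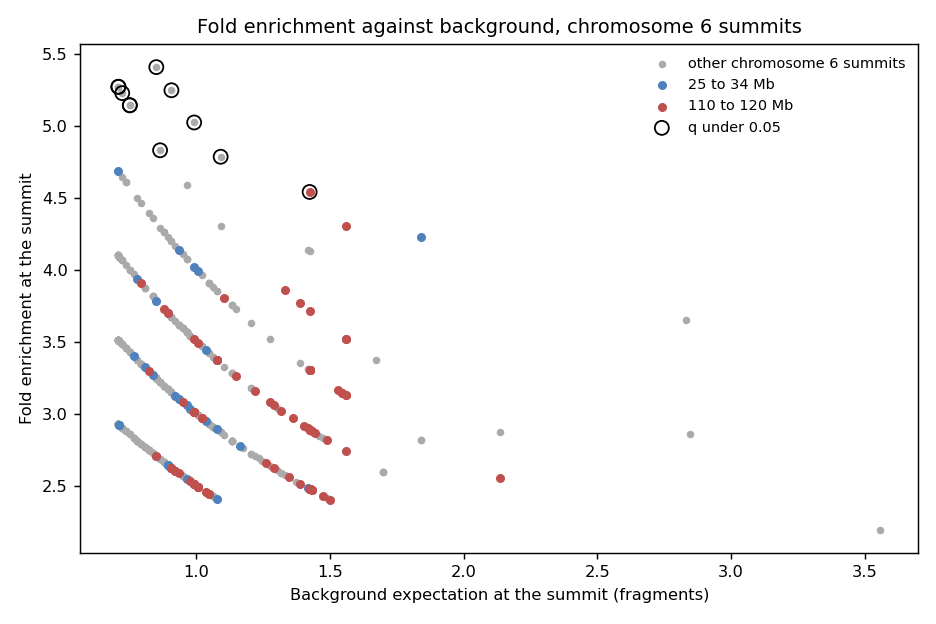
Fold enrichment at the summit (y) against the caller's background in fragments (x) for chromosome 6 summits, with those of 25 to 34 Mb in blue, those of 110 to 120 Mb in red and q under 0.05 circled; the summit with a background of 70.5 lies outside the axis. The curves are whole numbers of fragments, beginning with 4 at the bottom, and red points gather near a background of 1.42.

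**Figure D3:**
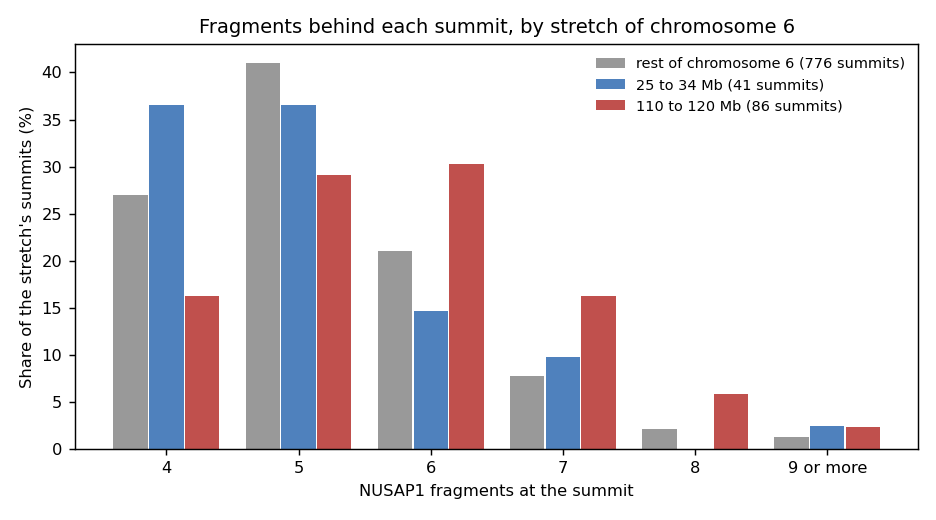
Share of summits (y, percent) by number of NUSAP1 fragments at the summit (x) for 110 to 120 Mb (86 summits), 25 to 34 Mb (41) and the rest of chromosome 6 (776). The 110 to 120 Mb stretch has more of its summits at 6, 7 and 8 fragments than either of the others.

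Of the 51 protein-coding genes that begin there, 2 had a summit at a gene end, here taken as within 1 kb of either end, and 17 more had one in the body only, in all 37.3%. Over chromosome 6 the share was 22.2% (29 at an end and 202 in the body only), and over all chromosomes 13.6%. The median gene length was 50.5 kb in the stretch and 21.9 kb over chromosome 6, and the part of length in the share was not tested. HS3ST5, which encodes a sulfotransferase that modifies heparan sulfate, had a summit 698 bp inside its upper end (position 114342325, fold enrichment 3.30, 7 fragments over 1.42, q 0.779) and 3 more in its body. That summit is at the annotated start of the lncRNA gene LOC107986638, which runs the other way. RFPL4B had a summit 970 bp beyond its upper end (2.97, q 0.863). The 3 tyrosine kinase genes FYN (fold enrichment 3.13, 7 fragments), ROS1 (3.30, 7 fragments) and FRK (3.90, 6 fragments) each held 1 summit in the body. Their q lay at 0.779, 0.779 and 0.418. METTL24 held 3 summits, as did CEP85L, and the laminin gene LAMA4 held 2. The single summit of the stretch with q under 0.05 was at 112671641 (4.54, 10 fragments over 1.42, q 0.0392), 18.3 kb from the lncRNA gene LOC105377949 and 320 kb from the nearest protein-coding gene, RFPL4B. A summit at 112272670 in the lncRNA gene LAMA4-AS1 also had 10 fragments (4.30, q 0.0837).

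The histone and HLA clusters at 25 to 34 Mb did not stand out in summit density. The stretch held 41 summits, 4.56 per Mb (3.27 to 6.18), against 5.33 on the rest of the chromosome (4.98 to 5.70), a ratio of 0.854 with overlapping intervals. It held 29.9 protein-coding genes per Mb against 4.78. None of the 41 had q under 0.05 (Wilson upper limit 8.57%), and 5 had 7 or more fragments (12.2%). The background, with a median of 0.963 fragments, equalled that of the chromosome to 3 digits. Within the stretch the summits were unequal. The 1 Mb from 26 to 27 Mb held 9 and that from 32 to 33 Mb held 8, whereas 28 to 29 Mb and 31 to 32 Mb held 1 each.

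Summits of the stretch were also placed relative to genes. Of the 41, 11 (26.8%, Wilson interval 15.7 to 41.9) were at an end of a protein-coding or lncRNA gene. In the rest of the chromosome 48 of 862 did (5.57%, 4.23 to 7.31). The windows of 1 kb around gene ends themselves cover 13.6% of the stretch and 4.31% of chromosome 6, and the part of this gene density in the share was not tested. In the stretch from 110 to 120 Mb, 7 of 86 summits (8.14%) were at gene ends, which cover 4.45% of it.

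Among the histone genes 3 of 55 had a summit at an end (5.45%), against 2.78% of the protein-coding genes of chromosome 6 and 2.22% of all. For the 269 protein-coding genes that begin between 25 and 34 Mb, histone genes included, it was 9 (3.35%). The median length of the histone genes was 0.489 kb against 21.9 kb for the chromosome. The difference in shares was not tested. H4C3, which encodes histone H4, had its summit 189 bp beyond its upper end (position 26104526, fold enrichment 3.01, 5 fragments over 0.991, q 0.914). H3C6, which encodes histone H3, had one 251 bp inside its lower end (26224429, 2.60, 4 fragments, q 1). H4C7, a further H4 gene, had one 245 bp below its lower end (26246366, 2.62, 4 fragments, q 1). No other histone gene, and none of those for H1, H2A or H2B, had a summit at an end or in the body. The span of the listed histone genes held 12 summits, 5.54 per Mb (2.86 to 9.67), none of which had 7 or more fragments.

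The HLA class I genes HLA-B, HLA-C, HLA-E, HLA-F and HLA-G, whose products present peptides made inside the cell, had no summit at an end or in the body. Of all 19 HLA genes listed, the class II gene HLA-DQA2 alone had one, 893 bp inside its upper end (position 32746305, fold enrichment 3.12, 5 fragments, q 0.779). That is 5.26% of the list, against 2.78% at an end and 22.2% at an end or in the body for all protein-coding genes of chromosome 6, whose median length was 21.9 kb against 5.81 kb for the HLA genes. The nearest summit lay 188 kb from HLA-B and 103 kb from HLA-C. TAP2, a subunit of the transporter that carries peptides to class I molecules, had a summit 592 bp below its lower end (32821239, 2.89, q 1). Its partner TAP1, the immunoproteasome genes PSMB8 and PSMB9, TAPBP, MICA and MICB had none. That is 1 of 7 listed genes (14.3%), to be set beside the same 2.78% and 22.2% of the chromosome. The HLA pseudogene HLA-V lay beside the largest fold enrichment of the stretch, 4.68 at position 29798089 (7 fragments over 0.708, q 0.0857), 282 bp beyond its upper end.

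Other gene families of the region held few summits or none. Of 46 genes of the MHC class III region, which include the complement genes C2, CFB, C4A and C4B and the cytokine gene TNF, only the tenascin gene TNXB held summits, 2 in its body with fold enrichments of 2.48 and 3.99 (q 1 and 0.418). None of 8 butyrophilin genes and HFE, of 17 zinc finger and SCAN genes, or of 15 olfactory receptor genes had a summit at an end or in the body. Counted the same way, at an end or in the body, the share was 22.2% of the protein-coding genes of chromosome 6 and 5.58% (15 of 269) of those that begin between 25 and 34 Mb. The genes of these 4 lists were shorter, with median lengths of 6.36, 12.9, 19.3 and 3.21 kb in the order named, against 21.9 kb for the chromosome, and the part of length in the counts was not tested. Near the MHC, RING1, a subunit of Polycomb repressive complexes, had a summit 290 bp beyond its upper end (33213006, 2.78, q 1). IP6K3, an inositol hexakisphosphate kinase gene, had one 541 bp below its lower end (33721121, 3.03, q 0.866).

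Of 154 tRNA genes on chromosome 6, 144 of them between 25 and 34 Mb, 5 had a summit at an end (3.25%), against 1.86% of all 429 tRNA genes of the table and 1.09% of the 275 on other chromosomes. TRL-TAA1-1, a leucine tRNA gene on the long arm, had 2, at 144215687 (fold enrichment 3.47, 6 fragments) and at 144216541 (2.99, 5 fragments), the latter 6 bp below the gene. TRR-TCG4-1, an arginine tRNA gene, had one 14 bp above it (26299763, 2.41, 4 fragments). TRQ-CTG1-2, TRM-CAT4-2 and TRI-AAT1-1 had theirs 781, 240 and 339 bp away, with fold enrichments of 3.10, 2.48 and 2.51. Of these genes, TRL-TAA1-1 and TRI-AAT1-1 (summit at 57800623) lie outside 25 to 34 Mb. The 3.25% is thus not a share of the tRNA genes of that stretch. The smallest q at a tRNA gene was 0.779. Copies of the same tRNA gene can be near-identical in sequence, and whether reads were shared between copies was not tested.

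A summit was at an end of 29 of its 1042 protein-coding genes (2.78%), against 2.22% over all chromosomes, and of 36 of its 1050 lncRNA genes (3.43%), against 1.74% over all and 1.64% on the other chromosomes. With the gene body included, the lncRNA share was 11.9%, against 7.28% over all and 6.99% on the others. Summit density itself was 1.86 times that of the other chromosomes. Counted by summits, 59 of 903 (6.53%, Wilson interval 5.10 to 8.34) were at a gene end, against 6.93% over all chromosomes. Another 447 (49.5%) were inside genes and 397 (44.0%) outside. The share at gene ends was 5.87% with 4 or 5 fragments, 5.13% with 6 and 12.5% (14 of 112, 7.59 to 19.9) with 7 or more. The other chromosomes had 5.80%, 7.32% and 12.9%. None of the 29 genes had a q under 0.05.

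The highest fold enrichment at a protein-coding gene end was at GTF2H4, a subunit of the general transcription factor TFIIH, which opens promoter DNA and works in excision repair. Its summit, marked in the sequence above, lay 101 bp before the start (peak 30908011 to 30908275, fold enrichment 4.22, 11 fragments over 1.84, q 0.0635). PHF3, whose product binds RNA polymerase II, had a pair of summits 461 bp apart, at 63636007 (4.14, 9 fragments over 1.42, q 0.162) and 63636468 (3.63, 7 fragments, q 0.458), the latter 13 bp before the inner start shown above. HTR1B, a serotonin receptor gene, had one 364 bp before its start (3.81, 6 fragments, q 0.418). That summit lay nearer, 88 bp after, an annotated start of LOC105377864 on the other strand. FOXC1, a forkhead transcription factor gene, had one 191 bp after its start (3.67, 6 fragments, q 0.519). FAM217A, elsewhere on the short arm, had one of equal values 235 bp beyond its upper end.

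Below these came MAP7, which encodes a microtubule-associated protein (fold enrichment 3.44, q 0.779), HS3ST5, the transcription factor gene OLIG3 (3.27), MCHR2 (3.12), HLA-DQA2, IP6K3, H4C3, TRAM2 (3.01), RFPL4B and TAP2. Among the rest, EEF1A1, the translation elongation factor, had a summit 238 bp inside its lower end, 8 fragments over a background of 2.14 (2.87, q 0.779). TUBB, a beta-tubulin gene, had one 970 bp inside its lower end, 316 bp before an inner start (2.48, q 1). VEGFA, the vascular endothelial growth factor, had one 858 bp inside its lower end (2.89, q 0.944). TEAD3, a transcription factor gene of the Hippo pathway, had one at 2.48 (q 1).

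The divergent pair TDP2 and ACOT13 had the lowest fold enrichment of the chromosome, 2.19, with as many as 9 fragments. TDP2 encodes an enzyme that removes trapped topoisomerase from DNA ends, and ACOT13 a thioesterase. Their single summit, at 24667023, stood on a background of 3.56 fragments, and its q was 1. Of the 903 summits, 7 had a background 3 or more times the lowest, namely 2.12 or more, and EEF1A1 and this pair were 2 of them. TUBB, STXBP5, TEAD3, DYNLT2 with ERMARD, and VEGFA stood near 1.42. The part of the background in these calls was not tested.

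**Figure D4:**
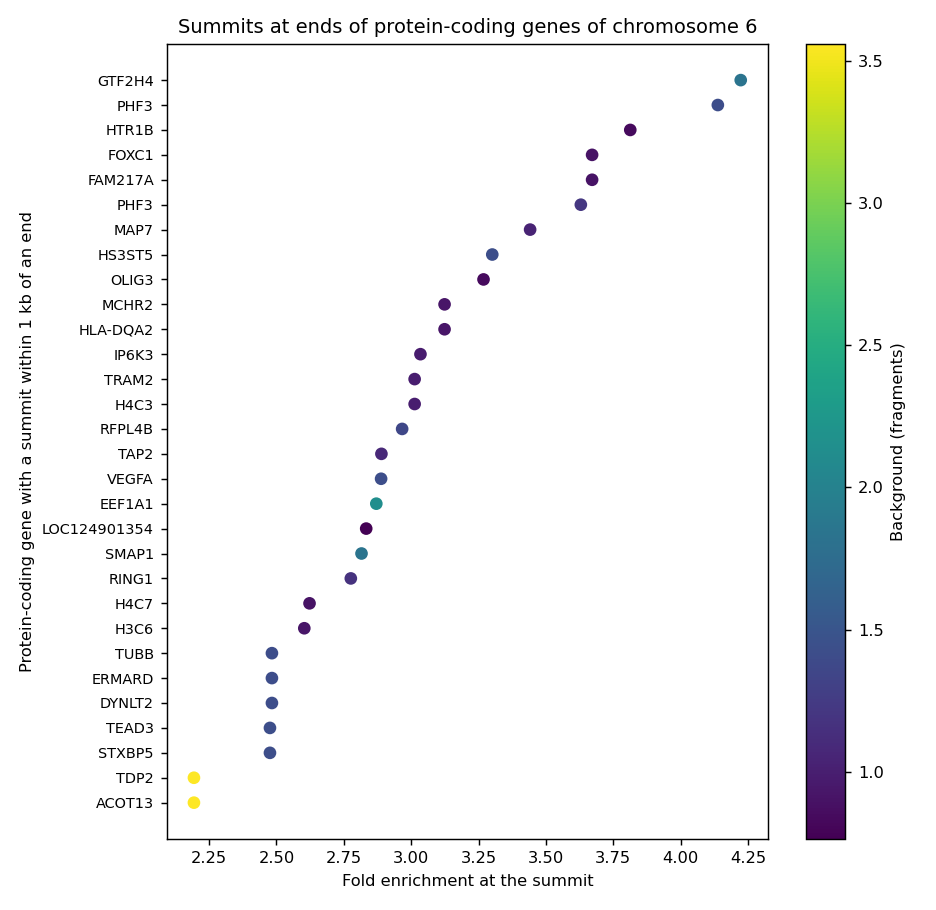
Fold enrichment (x) at each summit at the end (1 kb) of chromosome 6 protein-coding genes (y, gene symbols in order of fold; PHF3 has 2 summits, and pairs of neighbouring genes share one), coloured by the background in fragments. GTF2H4 is highest at 4.22, and TDP2 and ACOT13 are lowest at 2.19 on the highest background, 3.56.

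Of the 12 summits with q under 0.05, 8 had no protein-coding or lncRNA gene over the summit or within 1 kb, against 397 of all 903 (44.0%). The difference was not tested. The smallest q, 1.21e-22, was at 59163250, in a stretch of 2.16 Mb without annotated genes (58121086 to 60281437), the widest on the chromosome, where the centromere lies. It had 182 fragments over a background of 70.5, so its fold enrichment was only 2.56, and the other summits of the chromosome had at most 13 fragments. A second summit of the same stretch, at 59278647, had the highest fold enrichment of the chromosome, 5.41, with 9 fragments over 0.850 (q 0.00449).

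Inside genes, KHDRBS2, an RNA-binding protein gene, held the next one at 61745093 (fold enrichment 5.25, 9 fragments, q 0.00760). TFB1M, which encodes a methyltransferase for mitochondrial ribosomal RNA, held one at 155281870 (5.02, q 0.0144), and CDYL, a chromatin corepressor gene, held one at 4851131 (4.83, q 0.0396). The single gene end with q under 0.05 was that of LOC105378005, an lncRNA gene, with the summit 21 bp before its start (131443817, 5.14, 8 fragments over 0.751, q 0.0148). The other 6 were at 104301104 and 152934759 (both 5.27, q 0.0105), 79339236 (5.23), 87986622 (5.14), 122170482 (4.78) and 112671641, between 35.8 kb (FBXO5) and 427 kb (HACE1) from the nearest protein-coding gene. Leaving out the summit at 59163250, the 11 others had 8 to 10 fragments.

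Among the protein-coding genes with most summits in the body, NKAIN2, which spans 1.02 Mb, held 13 (12.7 per Mb, Poisson interval 6.77 to 21.8). The photoreceptor gene EYS, of 1.99 Mb, held 11 (5.54 per Mb). KHDRBS2 held 9 (12.1 per Mb) and LAMA2, a laminin gene of muscle basement membrane, 8 (12.6 per Mb). ADGRB3, an adhesion receptor gene, held 6, and EYA4, GMDS and TRDN held 5 each. The intervals of NKAIN2, KHDRBS2, LAMA2 and EYA4 lay above the 5.29 per Mb of the chromosome, and these genes were chosen for their counts.

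Among 34 growth, cell cycle and cancer genes of the chromosome, FOXC1 and VEGFA had a summit at an end and 10 had one in the body only, in all 35.3% against 22.2% of the protein-coding genes of the chromosome. Their median length was 61.3 kb against 21.9 kb for all. The cyclin gene CCND3 held 2 summits (3.28 and 2.48, q 0.779 and 1), and PRDM1, a transcriptional repressor gene, held 3 (2.91 to 3.31). SGK1, a kinase gene, held 2 (3.06 and 2.91), and the Hippo kinase gene LATS1 held 1 (2.89, q 0.944). TTK, the spindle checkpoint kinase, held 1 (2.72, 4 fragments, q 1). CDKN1A, PIM1, E2F3, SOX4, MYB, TNFAIP3, ESR1 and ARID1B had none. Of 18 genes listed as abundant housekeeping genes, EEF1A1 and TUBB had a summit at an end (11.1%), against 2.78% of the protein-coding genes of the chromosome. GNMT, a glycine methyltransferase gene also put in that list, had one in the body (42962648, 4.58, 8 fragments, q 0.0856), which lies also in the overlapping gene CNPY3-GNMT. At an end or in the body, 3 of the 18 had a summit (16.7%), against 22.2% of the protein-coding genes of the chromosome. The median length in this list was 7.36 kb. The list was not checked against expression, for GNMT or the others.

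Measured from annotated transcription starts, 36 of the 903 summits (3.99%, Wilson interval 2.89 to 5.47) lay within 1 kb, 15 upstream and 21 downstream. On the other chromosomes with start positions it was 357 of 7841 (4.55%, 4.11 to 5.04), and the intervals overlap. A peak overlapped 18 of the 2083 promoter windows of chromosome 6, which run from 250 bases before to 50 after a start. These 18 had a median GC content of 64.3% against 56.7% for all windows of the chromosome, and a median of 22.5 CpG dinucleotides against 12. A GC box was found in 11 of the 18 (61.1%) against 43.2%, CCAAT in 6 (33.3%) against 35.6% and TATAAA in 2 (11.1%) against 15.0%, both strands searched. CCGGAAG was in 0 of the 18, against 8.31%. The palindrome GCGCATGCGC, of the NRF1 motif, was searched after it was seen in the ACOT13 sequence. It was in 3 of the 18, those of ACOT13 and TDP2, which share it, and of LOC124901422, against 1.39% of the windows of the chromosome and 1.24% of all 35097. These are counts of letters in fixed windows and not of bound sites.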

How the data were processed

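Per the labels, 1 NUSAP1 ChIP-seq library and 1 input library of AsPC1 cells were made. Per the submitters' processing notes, reads were handled with MACS2 2.1.0, Bowtie 1.1.2, Trimmomatic 0.33 and bcl2fastq 2.17 on hg38; the caller's settings are not given in the sources used here. The deposited narrowPeak list holds a score (10 times -log10 p, whole part), fold enrichment as a ratio, -log10 p and -log10 q, and, in an other deposited column, the summit offset, all from the authors' caller. Its p-values were adjusted by the caller over its own set.

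Fragments and background at each summit were solved from fold enrichment, read as (fragments + 1)/(background + 1), and the Poisson -log10 p. All 9043 summits were matched within 0.001 by a whole number of fragments. The step was tested on simulated data. Genes came from a RefSeq table of GRCh38.p14 (58957 placed genes, 3324 on chromosome 6) and starts from its promoter table (1624 genes of chromosome 6). That table leaves out some genes, and those on chromosomes without entries were not used. A gene end is either end of a gene, within 1 kb. WHR1 (listed as STK19) and SCAND3 (listed as ZBED9) matched through synonyms.

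Members, stretches and gene lists were chosen with earlier results of these data known. Named genes are those with q under 0.05 at an end, the 15 protein-coding genes of highest fold at an end, genes at the 10 smallest q, gene ends of 110 to 120 Mb, up to 6 members per list, and the 8 genes with most summits in the body, with ties; some genes that the rule names are not reported here. HLA-V, LAMA4-AS1, METTL24, CEP85L, LOC105377864, LOC105378002, LOC107986638, LOC124901422, NHSL1, NCOA7, AKAP7, MIR133B, TDP2, ACOT13, STXBP5, TEAD3, RING1, TNXB, DYNLT2 and ERMARD, the tRNA genes and members without a summit were named after their values were seen. Alternatives were 7 or more fragments, q under 0.05, fold of at least 4, a background under 3 times the lowest, merging within 1 kb, gene ends of 500 bp and 5 kb, any overlap, and other windows; a background of at most 1.4 was added after the data were seen. Computations used scipy 1.17.1, pandas 2.3.3 and numpy 2.4.6 under Python 3.11.15, and plots matplotlib 3.10.9.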

Additional observations from a re-analysis of the deposited data

How the results depend on the processing

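Of 74 alternative values, 39 stayed within the main value's interval or within 1.5 times the count, and 35 moved. Stricter limits keep fewer summits by construction. With 7 or more fragments, 112 summits were left (0.656 per Mb), with fold of at least 4, 67 (0.393 per Mb), and with q under 0.05, 12 (0.0703 per Mb). The fullest 5 Mb window then held 17, 5 and 2 summits and began at 110, 60 and 55 Mb, against 115 Mb for all summits. With all summits, the fullest window of 2 Mb held 20 and began at 118 Mb. The 110 to 120 Mb ratio was 3.71 at 7 fragments, 0.494 at fold of at least 4 (2 summits) and 0.995 at a background of at most 1.4; the cause was not tested. It thus fell below 1 under the last 2, from 1.69. The 25 to 34 Mb ratio, 0.854, was 0.945 at a background of at most 1.4 and rose above 1, to 1.14, at fold of at least 4. At q under 0.05 it was 0, since that stretch had 0 such summits. The share at gene ends was 12.5% at 7 fragments, 8.96% at fold of at least 4, 17.3% within 5 kb and 4.43% within 500 bp. Protein-coding genes with a summit at an end numbered 7, 2 and 0 at 7 fragments, fold of at least 4 and q under 0.05, 95 within 5 kb and 17 within 500 bp. Listed genes with any summit numbered 6, 2 and 0 under these 3 limits, against 21 of 219. Histone genes and HLA genes fell to 0 under each of the 3 limits, rose to 5 and 3 within 5 kb, and HLA genes fell to 0 within 500 bp. Since most summits rest on 4 to 6 fragments, single genes are weakly supported. No paired analysis was possible because each group has 1 sample and the input has no file here.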

Other observations

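Neighbouring summits of chromosome 6 were 130.2 kb apart in the median (quartiles 51.5 and 257 kb), and 43 of 902 neighbouring pairs lay within 10 kb. The widest gap, 1.29 Mb, ran from 89764842 to 91053368. Within 1 kb there were 4 pairs. Apart from PHF3 and TRL-TAA1-1, described in the report, these lay at 9668055 and 9668920 (both fold enrichment 2.44) and in NCOA7, a nuclear receptor coactivator gene. In NCOA7, the summit at 125790579 had 13 fragments over a background of 2.83 (fold enrichment 3.65, q 0.123), and the one 766 bp away had 3.37. After the summit at 59163250 this was the largest number of fragments on the chromosome.

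AKAP7, a gene for an anchoring protein of protein kinase A, had a summit 62 bp after an inner start (131135529, fold enrichment 4.31, q 0.150), with 71.0% G and C in the promoter window. The microRNA gene MIR133B, known from muscle, had a summit 363 bp above it (52149404, 2.48, q 1).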
